A study of Mus musculus with 12 samples.

Results

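Transcript levels of 9 genes of prostaglandin and leukotriene synthesis and signalling were followed in cultured adult mouse astrocytes, glial cells that support neurons. The genes were Pla2g4a, Ptgs1, Ptgs2, Ptges, Ptgis, Ptgds, Hpgds, Alox5ap and Ptger4, chosen by symbol from a table of 54532 genes in which each had 1 row. Values are FPKM, reads scaled to gene length and library size. All 9 were among the 14014 genes that reached 1 FPKM in at least 2 of the 12 libraries and were tested, although Ptger4 passed only through the Ogt cKO, AD model and Aβ-treated groups, where it was high.

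These lipids are made on demand from arachidonic acid. Cytosolic phospholipase A2 (Pla2g4a) frees the fatty acid from membranes, the cyclooxygenases COX-1 (Ptgs1, usually steady) and COX-2 (Ptgs2, induced by inflammatory signals) turn it into prostaglandin H2, and a terminal synthase then sets the product. Ptges makes prostaglandin E2, Ptgis makes prostacyclin, and Ptgds and Hpgds make prostaglandin D2. Alox5ap presents arachidonic acid to 5-lipoxygenase for leukotriene synthesis, and Ptger4 encodes EP4, a receptor for prostaglandin E2. In the brain these mediators are known for their part in fever, blood flow and inflammation, and glia and vessel-associated cells are among their sources.

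The cells came from cortex and hippocampus of C57BL/6 mice, with 2 libraries in each of 6 groups and a separate control for each of 3 experiments. The Ogt cKO group carried a conditional knockout of Ogt, the enzyme that attaches O-GlcNAc to proteins, at 4 months of age. Its control (cKO control) was of the same age and has the same genotype label, Glast-CreERT2::Ogtfloxp/Y, so the sample descriptions alone tell the groups apart. The Glast promoter drives a tamoxifen-dependent Cre in astrocytes, and no tamoxifen treatment is described. The AD model group came from 5X APP mice, an amyloid model of Alzheimer's disease, and the AD control from wild-type mice, at 6 months by the sample labels and 5 months by the series text. The Aβ-treated group was wild-type astrocytes of 2-month-old mice kept in 20 µM Aβ 1-42, the plaque-forming peptide, for 72 hours (73 hours in the label of 1 sample), and the Aβ control was left untreated. A cell sort is not mentioned. The labels do not say that replicates came from separate animals or cultures, so each p-value measures only the spread between these libraries, which may be technical. Age and experiment cannot be told apart where levels of different experiments are set side by side.

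Each library held 16418852 to 18705309 reads in genes, at which 3 reads on a transcript of 1 kilobase correspond to 0.145 to 0.191 FPKM (counting error only). Replicates correlated at r = 0.985 to 0.991 across genes in 4 groups, but at 0.944 in the AD model and 0.948 in the AD control. Ogt was at 11.04 and 12.03 FPKM in the Ogt cKO libraries, against 20.8 and 24.7 in the cKO control (log2 change of -0.92, limma, adjusted p = 0.0378). Libraries of other groups held similar levels, with 12.45 and 10.65 FPKM in Aβ-treated cells, 7.85 and 10.4 in the Aβ control and 10.03 in AD control replicate 1. The astrocyte marker Gfap ranged over the libraries between 29.1 and 298 FPKM, while another astrocyte marker, Gjb6, was at 0 in 7 libraries. Of 14 tested astrocyte markers, 9 fell in the Ogt cKO, 5 fell in the AD model, and 2 rose and 2 fell in Aβ-treated cells. Markers of other cells were also present. The macrophage and microglia gene Lyz2 reached 523 FPKM or more, the smooth muscle gene Acta2 171 or more and the fibroblast gene Col1a1 141 or more in every library.

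Of the 9 genes, 8 lie on chromosomes 1, 2, 5 and 6, and Ptger4 lies on chromosome 15. In mm10, Pla2g4a (ENSMUSG00000056220) spans chr1:149829618-149961290 on the minus strand, and Ptgs2 (ENSMUSG00000032487) spans chr1:150100031-150108227 on the plus strand, with 138740 bases between them. On chromosome 2 lie Ptgds (ENSMUSG00000015090, chr2:25466709-25470046, minus strand), Ptges (ENSMUSG00000050737, chr2:30889471-30929863, minus strand), Ptgs1 (ENSMUSG00000047250, chr2:36230426-36252272, plus strand) and Ptgis (ENSMUSG00000017969, chr2:167191805-167240604, minus strand). Alox5ap (ENSMUSG00000060063) spans chr5:149264767-149288153 on the plus strand, Hpgds (ENSMUSG00000029919) chr6:65117293-65144908 on the minus strand and Ptger4 (ENSMUSG00000039942) chr15:5206661-5244187 on the minus strand. Each row covers the whole protein-coding gene. Promoter sequences, 250 bases before to 50 bases after a start, were taken from RefSeq (GRCm38.p6, the same assembly as mm10) and were found for 7 of the 9 genes, with no entry used for Ptgis and Alox5ap. The promoters of Ptgs2, which had the widest range of levels, and Ptgds, which moved opposite to it in the Ogt cKO, are shown because both held a match to a motif of inflammatory or stress-responsive factors. Capitals mark the matches, in Ptgs2 a C/EBP motif and a short cAMP response element on the other strand, and in Ptgds an AP-1 motif and an NF-kB consensus.
Ptgs2 (chr1:150099781-150100080, plus strand): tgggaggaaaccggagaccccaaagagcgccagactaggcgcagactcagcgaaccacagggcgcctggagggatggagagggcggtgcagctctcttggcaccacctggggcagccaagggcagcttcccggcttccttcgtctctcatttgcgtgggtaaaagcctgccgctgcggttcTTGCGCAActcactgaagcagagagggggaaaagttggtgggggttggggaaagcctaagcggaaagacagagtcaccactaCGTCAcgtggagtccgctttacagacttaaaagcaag
Ptgds (chr2:25469700-25469999, minus strand): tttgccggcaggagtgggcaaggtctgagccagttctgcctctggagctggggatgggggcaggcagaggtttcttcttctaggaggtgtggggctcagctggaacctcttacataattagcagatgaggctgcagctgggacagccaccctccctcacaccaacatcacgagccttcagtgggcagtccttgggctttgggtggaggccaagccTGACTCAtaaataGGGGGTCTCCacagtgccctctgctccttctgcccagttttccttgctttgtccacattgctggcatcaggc

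The 7 motifs searched on both strands were the full cAMP response element (TGACGTCA), its short form (TGACG, which the full form contains), AP-1 (TGANTCA), C/EBP (TTGCNNAA), the TATA box (TATAAA), the NF-kB consensus and the serum response element. Positions are relative to the start. The C/EBP match of Ptgs2 was at -69 and reads the same on both strands, and the short element was at 14. In Ptgds the AP-1 match was at -35 and the NF-kB match at -22. Of 32851 promoters in the table, 10.8% held the C/EBP motif, 20.8% the short cAMP response element, 7.81% the AP-1 motif and 8.46% the NF-kB consensus. Hpgds held a C/EBP match at -176 and the second start of Pla2g4a a TATA box at -200, whereas Ptgs1, Ptges, Ptger4 and the first start of Pla2g4a held none of the 7 motifs. The promoters used for Ptges (chr2:30903248-30903547) and Ptgds lie inside the gene spans given above. Starts at the outer ends of those spans were not searched.

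In the Ogt cKO, 6 of the 9 genes rose and 2 fell, among 22.6% of all tested genes that rose and 19.8% that fell. The genes for arachidonic acid release, both cyclooxygenases, the prostaglandin E2 and prostacyclin synthases and EP4 were higher, and both prostaglandin D2 synthases were lower. In the AD model 3 rose and 0 fell (0 also at an unadjusted p under 0.05 and with voom on the recovered reads), where 9.8% of tested genes rose and 7.27% fell, and the 6 others included Ptgs2. In the Aβ-treated cells 2 rose and 2 fell, where 20.8% rose and 15.1% fell. These counts depend on single libraries, and leaving a library out also changes the number called among all tested genes. In the 4 libraries of the AD comparison alone, 239 of all tested genes rose. In the cKO comparison 3 rose without Ogt cKO replicate 1 or without cKO control replicate 2, and 1 fell without any 1 of its 4 libraries. In the AD comparison 5 rose without AD control replicate 1, 1 fell without AD model replicate 1, and 0 rose in the 4 libraries alone. In the Aβ comparison 0 rose without Aβ control replicate 1, 1 without Aβ control replicate 2 or Aβ-treated replicate 1, and 5 without either AD control library, while 0 fell without Aβ-treated replicate 1 and 1 without either Aβ control library. The median log2 change of the 9 genes was 1.67 in the cKO comparison, 1.11 in the AD comparison and 0.47 in the Aβ comparison, beside -0.00, -0.02 and -0.04 over all tested genes. The 9 genes were chosen with earlier results of these data known, so these counts and medians describe the list and do not test it. Calls are from limma on log2(FPKM + 1) at an adjusted p of 0.05, and a log2 change on this scale understates that of genes with low levels. Of all cKO calls 53.3% were higher, and 35.5% when the values were rescaled to the total reads of each library, which moved the median of all genes to -0.19. Of all Aβ calls 58.0% were higher, and 47.4% after quantile normalization (median of all genes -0.13). Within the 3 comparisons these scalings changed 1 call among the 9 genes, that of Ptger4 in the cKO comparison, which was lost in the rescaled values (adjusted p = 0.0658).

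**Figure D1:**
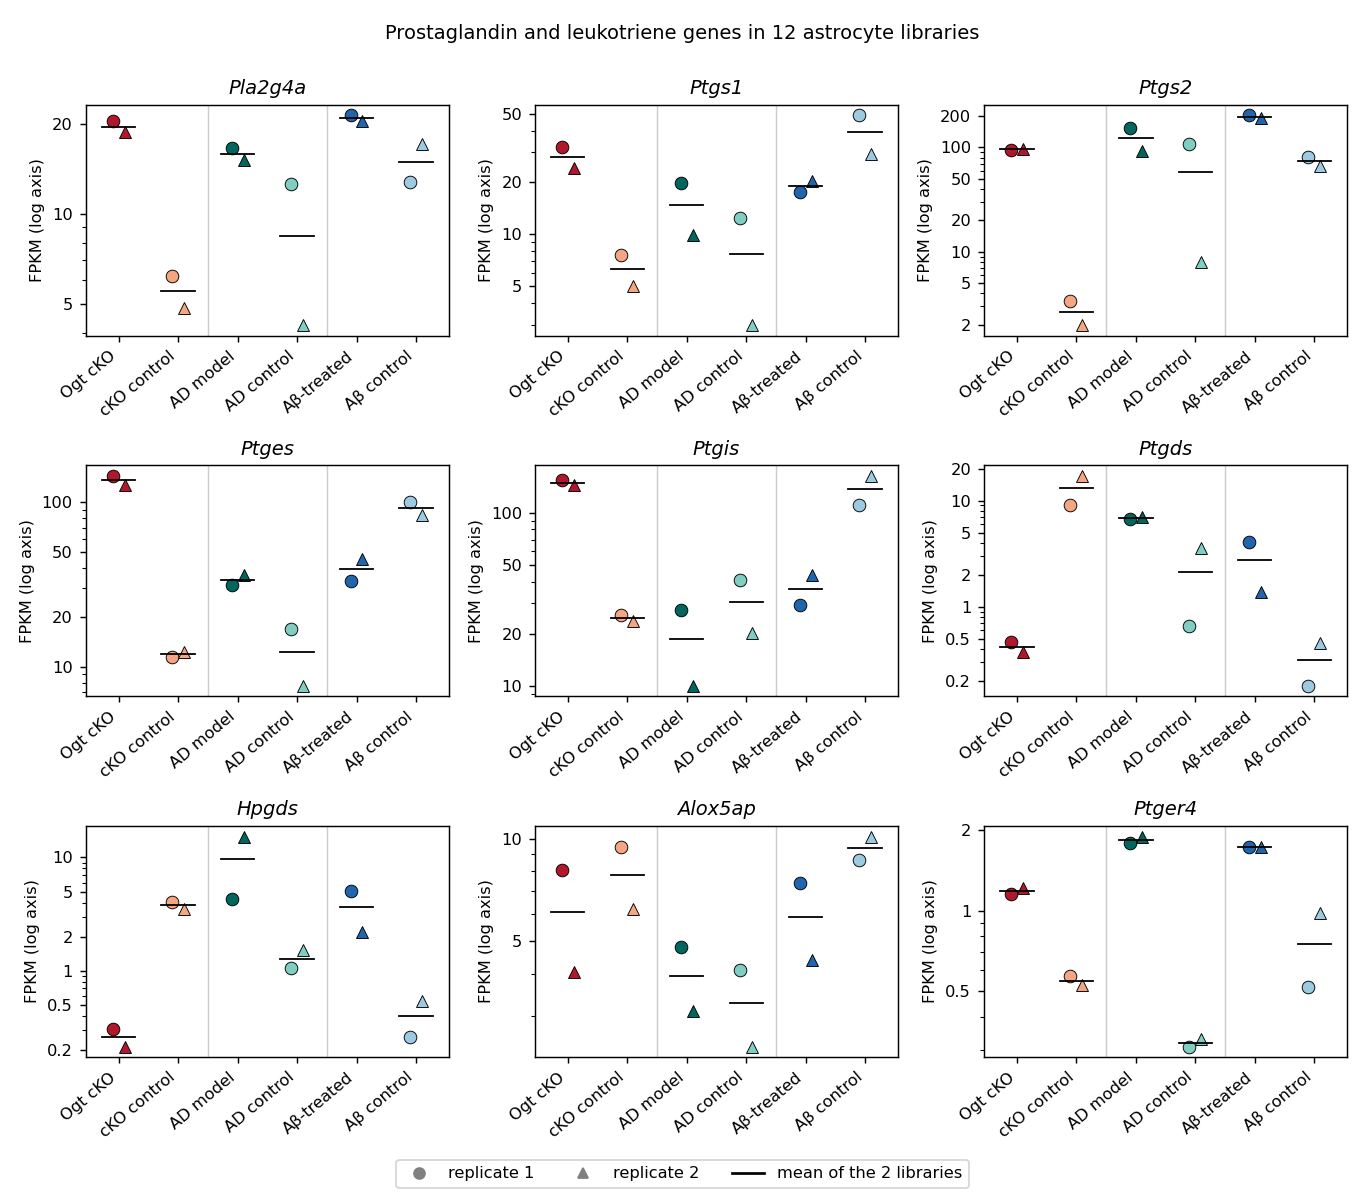
FPKM (log axis) of the 9 genes in each of the 12 libraries, by group, with circles for replicate 1, triangles for replicate 2 and a line at the mean of both. Ptgs2 sits at 94.6 and 96.7 FPKM in the Ogt cKO and at 3.36 and 1.97 in its control, while the AD control libraries lie far apart at 108 and 8.06.

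**Figure D2:**
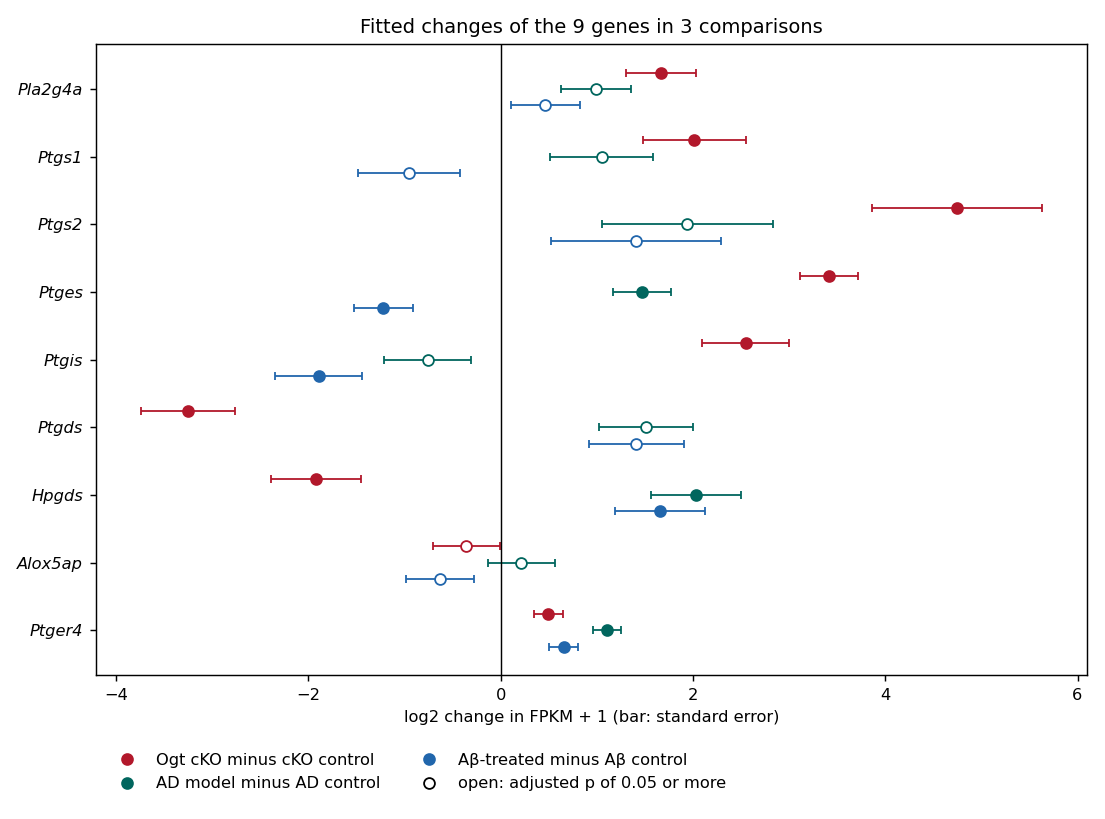
Fitted log2 change in FPKM + 1 of each gene (x axis, bars are standard errors) in the 3 comparisons, with filled points where limma's adjusted p was under 0.05. Ptgs1, Ptges, Ptgis, Ptgds and Hpgds have changes of opposite sign in the cKO and Aβ comparisons, and Ptger4 is the gene of the 9 with filled points on the right in all 3.

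Pla2g4a, the gene for arachidonic acid release, rose in the Ogt cKO. It was at 20.4 and 18.7 FPKM in the Ogt cKO, against 6.17 and 4.82 in the cKO control, a 3.56-fold higher mean (log2 change 1.67 ± 0.36 SE, limma, adjusted p = 0.00829). The 2 groups did not overlap. The call was lost without Ogt cKO replicate 1 (adjusted p = 0.0536) and without cKO control replicate 2 (adjusted p = 0.062). In the AD comparison it was at 16.6 and 15.1 FPKM in the AD model, against 12.6 and 4.23 in the AD control (log2 change 0.99, adjusted p = 0.0992), and in the Aβ comparison at 21.3 and 20.3 FPKM in treated cells, against 12.8 and 17.1 in the Aβ control (0.47, adjusted p = 0.337). Groups of 2 libraries also separated in genes that were not called, such as Ptges3 in all 3 comparisons. The share of all tested genes without overlap was not counted. Overlap is therefore given here, and for the genes and ratios below, as a description only. For Pla2g4a neither change passed the test, and groups did not overlap in either comparison. The AD change was called when AD control replicate 1 was left out (1.68, adjusted p = 0.00153), and the Aβ change was called without either AD control library (adjusted p = 0.0481 without replicate 1 and 0.0482 without replicate 2), since all 12 libraries share 1 estimate of the spread. Group means ran in the order Aβ-treated 20.8, Ogt cKO 19.6, AD model 15.8, Aβ control 14.9, AD control 8.42 and cKO control 5.50 FPKM, and the ranges overlapped between Aβ-treated and Ogt cKO, between AD model and Aβ control, and between AD control and cKO control.

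Ptgs2 had the largest change of the 9 genes in the cKO comparison. It was at 94.6 and 96.7 FPKM in the Ogt cKO, against 3.36 and 1.97 in the cKO control, a 35.9-fold higher mean (log2 change 4.75 ± 0.89 SE, limma, adjusted p = 0.00494). All libraries of the other experiments except AD control replicate 2 held at least 66.8 FPKM, and the cKO control held the lowest 2 values of the 12. In the AD comparison Ptgs2 was at 155 and 92.7 FPKM in the AD model, against 108 and 8.06 in the AD control. These groups overlap, and the log2 change of 1.94 ± 0.89 did not pass (adjusted p = 0.184). It was 3.74 (adjusted p = 0.000338) without AD control replicate 1 and 0.14 without AD control replicate 2, so 1 control library decides this value. In the Aβ comparison Ptgs2 was at 203 and 193 FPKM in treated cells, against 81.8 and 66.8 in the Aβ control, a 2.66-fold higher mean without overlap. Its log2 change of 1.41 ± 0.89 did not pass in the fit of all 12 libraries (adjusted p = 0.239). The change was called in the 4 libraries of the experiment alone (adjusted p = 0.00246) and without AD control replicate 1 (adjusted p = 0.00409) or AD control replicate 2 (adjusted p = 0.00413). Group means ran in the order Aβ-treated 198, AD model 124, Ogt cKO 95.7, Aβ control 74.3, AD control 58.2 and cKO control 2.67 FPKM, with overlap between the AD model and the Ogt cKO and between the Aβ control and the AD control.

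Ptgs1, the gene of COX-1, rose in the Ogt cKO as well. It was at 32.1 and 24.3 FPKM in the Ogt cKO, against 7.56 and 5.01 in the cKO control, a 4.50-fold higher mean (log2 change 2.02 ± 0.53 SE, limma, adjusted p = 0.0172). The call was lost without Ogt cKO replicate 1 (adjusted p = 0.0949), Ogt cKO replicate 2 (adjusted p = 0.0557) or cKO control replicate 2 (adjusted p = 0.105). In the AD comparison the libraries overlapped, at 19.8 and 9.94 FPKM in the AD model, against 12.4 and 2.96 in the AD control (log2 change 1.05, adjusted p = 0.234, and 1.93 with an adjusted p of 0.0212 without AD control replicate 1). Treated cells of the Aβ experiment held 17.7 and 20.5 FPKM, against 48.9 and 29.1 in the Aβ control, a log2 change of -0.95 that did not pass (adjusted p = 0.189) but was called in the 4 libraries alone (adjusted p = 0.0346). By group mean the Aβ control came first at 39.0 FPKM and the cKO control last at 6.28, and of neighbours in this order only the Ogt cKO and Aβ-treated groups did not overlap. The effect on Ptgs1 was larger in the cKO than in the Aβ comparison by 2.97 ± 0.75 log2 units (adjusted p = 0.0104). The same difference for Ptgs2 was 3.34 ± 1.25 (adjusted p = 0.0498), and this call was lost in 10 of the 12 fits that left out a library. It was also lost after quantile normalization (adjusted p = 0.0772), in the rescaled values (adjusted p = 0.0572), without a filter (adjusted p = 0.117) and with voom on the recovered reads (adjusted p = 0.0633).

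The balance of the 2 cyclooxygenase transcripts also differed between libraries. The ratio of Ptgs2 to Ptgs1 in FPKM, which is scaled to length, was 2.94 and 3.98 in the Ogt cKO, against 0.445 and 0.393 in the cKO control. The cKO control was the group in which the COX-1 transcript was the more abundant. The ratio was 7.84 and 9.32 in the AD model, against 8.75 and 2.72 in the AD control, with overlap, and 11.5 and 9.40 in Aβ-treated cells, against 1.67 and 2.30 in the Aβ control, without overlap. These ratios were not tested.

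Ptges, the inducible synthase of prostaglandin E2, changed in all 3 comparisons and not in 1 direction. It was at 145 and 128 FPKM in the Ogt cKO, against 11.5 and 12.3 in the cKO control, an 11.5-fold higher mean (log2 change 3.41 ± 0.30 SE, limma, adjusted p = 0.000451). In the AD model it was at 31.5 and 36.0 FPKM, against 17.1 and 7.64 in the AD control, 2.73-fold higher (1.47 ± 0.30, adjusted p = 0.0106). The Aβ-treated cells held 33.1 and 45.5 FPKM, against 100.2 and 83.8 in the Aβ control, so that the mean was 2.34-fold lower (-1.22 ± 0.30, adjusted p = 0.0135). In none of the 3 comparisons did a group overlap with its control, which was also so for genes that were not called, such as Ptges3. Means over all groups ran in the order Ogt cKO 137, Aβ control 92.01, Aβ-treated 39.3, AD model 33.7, AD control 12.4 and cKO control 11.9 FPKM, with overlap between Aβ-treated and AD model and between AD control and cKO control. The AD call was lost in the 4 libraries alone (adjusted p = 0.171), and the Aβ call without treated replicate 1 (adjusted p = 0.0987) or control replicate 1 (adjusted p = 0.0925). The 3 effects differed from one another, by 1.94 ± 0.43 log2 units for cKO minus AD (adjusted p = 0.014), -2.69 ± 0.43 for Aβ minus AD (adjusted p = 0.0116) and 4.63 ± 0.43 for cKO minus Aβ (adjusted p = 0.000144). The middle one of these was lost without Aβ-treated replicate 1 (adjusted p = 0.0558) or Aβ control replicate 1 (adjusted p = 0.0573) and in the 8 libraries of those experiments alone (adjusted p = 0.060), and the first without Ogt cKO replicate 1 (adjusted p = 0.0544).

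The prostacyclin synthase Ptgis moved with Ptges in the cKO and Aβ comparisons. It was at 155 and 144 FPKM in the Ogt cKO, against 25.7 and 23.7 in the cKO control, a 6.04-fold higher mean (log2 change 2.55 ± 0.45 SE, limma, adjusted p = 0.00422). Aβ-treated cells held 29.2 and 43.4 FPKM, against 111 and 163 in the Aβ control, a 3.78-fold lower mean (-1.89 ± 0.45, adjusted p = 0.0116). This Aβ call was lost without treated replicate 1 (adjusted p = 0.0846) or control replicate 2 (adjusted p = 0.070). In the AD comparison the groups overlapped, at 27.4 and 9.97 FPKM in the AD model, against 40.9 and 20.2 in the AD control (-0.76, adjusted p = 0.317, and -1.44 with an adjusted p of 0.0455 without AD model replicate 1). The Ogt cKO and Aβ control had the highest means, at 149 and 137 FPKM, and overlapped with one another, and the 4 other groups, with means of 18.7 to 36.3 FPKM, each overlapped with the next in order. The effect was larger in the cKO than in the AD comparison by 3.30 ± 0.64 log2 units (adjusted p = 0.00829) and than in the Aβ comparison by 4.44 ± 0.64 (adjusted p = 0.000889).

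Markers of several other cell types were set beside Ptgis. The summed FPKM of 12 pericyte and smooth muscle markers was 4035 and 4083 in the Ogt cKO, against 1032 and 516 in the cKO control. It was 768 and 217 in the AD model, against 3868 and 1755 in the AD control, and 494 and 427 in Aβ-treated cells, against 4111 and 3609 in the Aβ control. Of the 10 tested markers of this list, 5 rose and 1 fell in the cKO comparison, 7 fell in the AD comparison, and 7 fell in the Aβ comparison. Abcc9 was at 0 in 4 libraries and Kcnj8 in 2, and the other markers of the list were above 0 in every library. Summed mesothelial markers, of which Msln and Krt19 made up nearly all, were 168 and 154 FPKM in the Ogt cKO, against 1.96 and 0.583 in the cKO control, and 15.8 and 19.2 in Aβ-treated cells, against 131 and 199 in the Aβ control. AD libraries held 16.0 and 6.93 in the AD model, against 15.4 and 7.11 in the AD control. Both tested markers, Msln and Krt19, rose in the cKO comparison and fell in the Aβ comparison. Of the other markers of this list, Krt8 and Upk3b were at 0 in 7 libraries, Lrrn4 in 10, Krt18 in 3, Wt1 in 2 and Upk1b in 1. Endothelial markers, another known source of prostacyclin, summed to 299 and 289 FPKM in the Ogt cKO, against 56.4 and 45.2 in the cKO control, to 507 and 132 in the AD model, against 240 and 97.3 in the AD control, and to 899 and 1239 in Aβ-treated cells, against 362 and 288 in the Aβ control. Of these 12 markers 9 rose in the cKO comparison, 0 rose and 0 fell in the AD comparison, and 9 rose in the Aβ comparison. None was at 0 in any library. Summed fibroblast and meningeal markers were 1197 and 1225 FPKM in the Ogt cKO, against 813 and 939 in the cKO control, 755 and 358 in the AD model, against 1902 and 1015 in the AD control, and 287 and 485 in Aβ-treated cells, against 1020 and 815 in the Aβ control. Of the 8 tested markers of this list, 1 fell in the cKO comparison, 5 fell in the AD comparison, and 1 rose and 5 fell in the Aβ comparison. Slc22a6 was at 0 in 10 libraries, Dpt in 6, Slc47a1 in 3 and Igf2 in 1, and the other markers of the list were above 0 in every library. The part of these cells in the changes of Ptgis and Ptges was not tested, and in bulk libraries fewer cells of a type and less RNA per cell cannot be told apart.

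Both prostaglandin D2 synthases went the other way in the Ogt cKO. Ptgds, the lipocalin-type enzyme found in brain, was at 0.463 and 0.378 FPKM in the Ogt cKO, against 9.11 and 17.1 in the cKO control, a 31.1-fold lower mean (log2 change -3.25 ± 0.49 SE, limma, adjusted p = 0.00241). In the AD model it was at 6.72 and 6.96 FPKM, against 0.661 and 3.55 in the AD control (1.51 ± 0.49, adjusted p = 0.0676), and Aβ-treated cells held 4.08 and 1.39 FPKM, against 0.179 and 0.454 in the Aβ control (1.41 ± 0.49, adjusted p = 0.0508). Groups did not overlap in either comparison, and neither change was called. Under alternatives, the Aβ change was called in the 4 libraries of the experiment alone (limma, adjusted p = 0.032) and with a pseudocount of 0.5 (adjusted p = 0.0354). The AD change was 2.24 (adjusted p = 0.015) without AD control replicate 2, and the Aβ change was called with a pseudocount of 0.1 (2.67, adjusted p = 0.0216), without AD control replicate 1 (adjusted p = 0.0171) or replicate 2 (adjusted p = 0.0172) and without Aβ-treated replicate 2 (1.96, adjusted p = 0.0371). In the order of means (cKO control 13.1, AD model 6.84, Aβ-treated 2.74, AD control 2.11, Ogt cKO 0.420 and Aβ control 0.317 FPKM) Aβ-treated overlapped with AD control and Ogt cKO with Aβ control. The lowest library held 5 reads of Ptgds, and the highest 580. The effect of the cKO was lower than that of the AD model by 4.76 ± 0.69 log2 units (a difference of -4.76, adjusted p = 0.00259) and lower than that of Aβ treatment (-4.66 ± 0.69, adjusted p = 0.000998).

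Hpgds, the hematopoietic enzyme, which in brain is known from microglia, was also lower in the Ogt cKO and was called higher in the 2 amyloid comparisons. It was at 0.307 and 0.213 FPKM in the Ogt cKO, against 4.03 and 3.51 in the cKO control, a 14.5-fold lower mean (log2 change -1.92 ± 0.47 SE, limma, adjusted p = 0.0130). The AD model held 4.27 and 15.3 FPKM, against 1.05 and 1.51 in the AD control, 7.66-fold higher (2.03 ± 0.47, adjusted p = 0.0181), and Aβ-treated cells 5.07 and 2.18, against 0.258 and 0.538 in the Aβ control, 9.12-fold higher (1.66 ± 0.47, adjusted p = 0.0237). No group overlapped with its own control. The effects of cKO and AD differed by -3.95 ± 0.66 (adjusted p = 0.00472) and those of cKO and Aβ by -3.58 ± 0.66 (adjusted p = 0.00265). In the order of means (AD model 9.80, cKO control 3.77, Aβ-treated 3.63, AD control 1.28, Aβ control 0.398 and Ogt cKO 0.260 FPKM) cKO control overlapped with Aβ-treated and Aβ control with Ogt cKO. The cKO call was lost without any 1 of its 4 libraries (adjusted p = 0.0603 without Ogt cKO replicate 1, 0.0638 without Ogt cKO replicate 2, 0.0612 without cKO control replicate 1 and 0.0619 without cKO control replicate 2). The AD call was lost without AD control replicate 1 (adjusted p = 0.0706), without a filter (0.053) and in the 4 libraries alone (0.186), and the Aβ call without treated replicate 1 (0.161), control replicate 1 (0.13) or control replicate 2 (0.0619) and without a filter (0.0626), all adjusted p from limma.

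**Figure D3:**
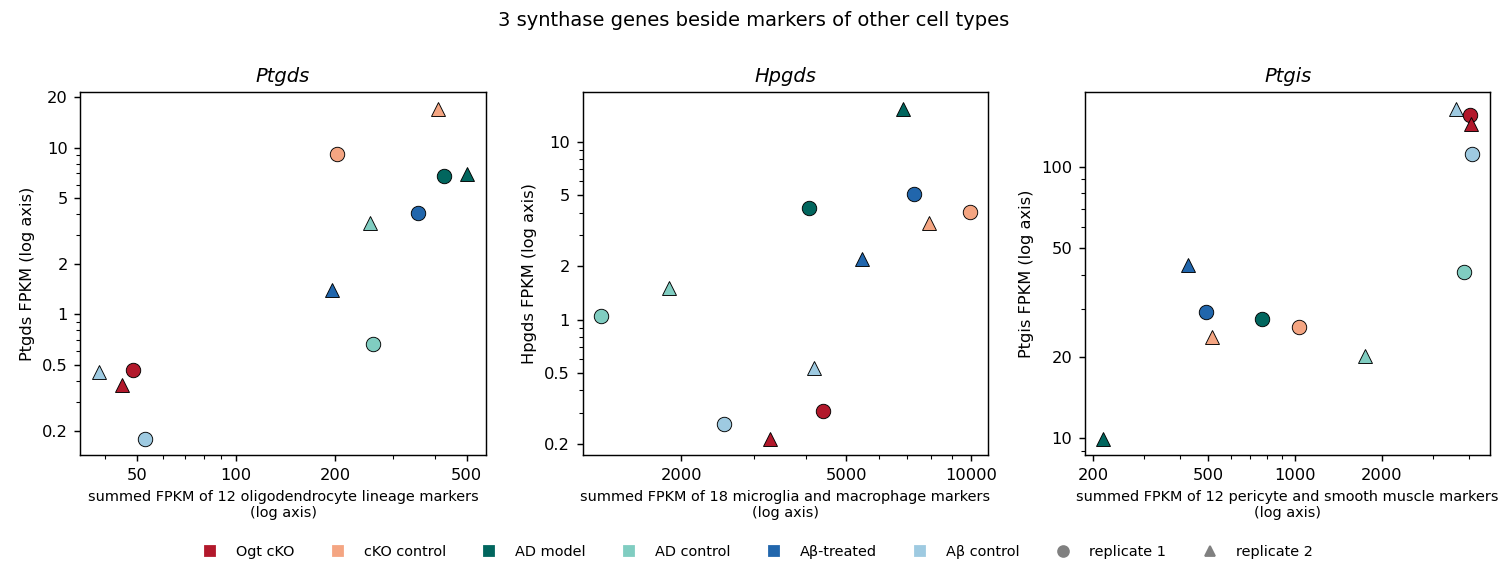
FPKM of Ptgds, Hpgds and Ptgis (y axes, log scale) in the 12 libraries against the summed FPKM of 12 oligodendrocyte lineage, 18 microglia and macrophage and 12 pericyte and smooth muscle markers (x axes, log scale), coloured by group. The Ogt cKO and Aβ control libraries lie at the low end for Ptgds, with oligodendrocyte sums of 38.3 to 53.0, and at the high end for Ptgis. AD control replicate 1 has a pericyte and smooth muscle sum of 3868, among those of these libraries, with Ptgis at 40.95 FPKM.

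The levels of Ptgds and Hpgds were set beside markers of other cell types, among them cells in which they are known to be made. Summed oligodendrocyte lineage markers were 48.5 and 45.1 FPKM in the Ogt cKO, against 202 and 409 in the cKO control, 427 and 503 in the AD model, against 259 and 254 in the AD control, and 356 and 196 in Aβ-treated cells, against 53.0 and 38.3 in the Aβ control. Of these 12 markers, 8 fell in the cKO comparison, 7 rose and 2 fell in the AD comparison, and 10 rose in the Aβ comparison, and none was at 0 in any library. The highest Ptgds was in the cKO control, but the highest sums were in the AD model. The groups with the lowest Ptgds were those with the lowest sums. The myelin gene Mbp, for example, averaged 5.94 FPKM in the Ogt cKO and 38.9 in the cKO control, 100.4 in the AD model and 23.2 in the AD control, and 64.6 in Aβ-treated cells and 5.37 in the Aβ control. Summed microglia and macrophage markers were 4394 and 3279 FPKM in the Ogt cKO, against 9935 and 7909 in the cKO control, 4057 and 6850 in the AD model, against 1280 and 1863 in the AD control, and 7282 and 5471 in Aβ-treated cells, against 2541 and 4188 in the Aβ control. Of these 18 markers, 9 fell in the cKO comparison, 13 rose in the AD comparison, and 9 rose and 2 fell in the Aβ comparison, with P2ry12 at 0 in 1 library and the others above 0 in all. Among mast cell markers, another known source of Hpgds, only Kit passed the filter, and the list summed to 7.47 FPKM or less with Fcer1a at 0 in all 12 libraries. Summed fibroblast and meningeal markers were 1197 and 1225 FPKM in the Ogt cKO, where Ptgds was lower, against 813 and 939 in the cKO control. They were 755 and 358 in the AD model, against 1902 and 1015 in the AD control. In Aβ-treated cells they were 287 and 485, against 1020 and 815 in the Aβ control. Ptgds was higher in the AD model and Aβ-treated cells, although not called. The part of all these cells in the changes of Ptgds and Hpgds was not tested.

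The transcripts of the 4 terminal synthases were also taken as shares of their summed FPKM. Ptges and Ptgis made up 48.2% and 51.5% of the sum in Ogt cKO replicate 1 and 47.1% and 52.7% in replicate 2. In the cKO control Ptges made up 22.9% and 21.7% and Ptgds 18.1% and 30.2%, whereas the share of Ptgds in the Ogt cKO was 0.154% and 0.139%. The share of Ptges was 45.1% and 52.7% in the AD model, against 28.6% and 23.2% in the AD control, without overlap. It was 46.4% and 49.2% in Aβ-treated cells, against 47.3% and 33.8% in the Aβ control, with overlap, although the level of Ptges fell there. The share of Hpgds was 0.102% and 0.0783% in the Ogt cKO, against 8.004% and 6.204% in the cKO control, 6.11% and 22.5% in the AD model, against 1.75% and 4.60% in the AD control, and 7.10% and 2.36% in Aβ-treated cells, against 0.122% and 0.217% in the Aβ control. These shares are of transcripts and were not tested.

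**Figure D4:**
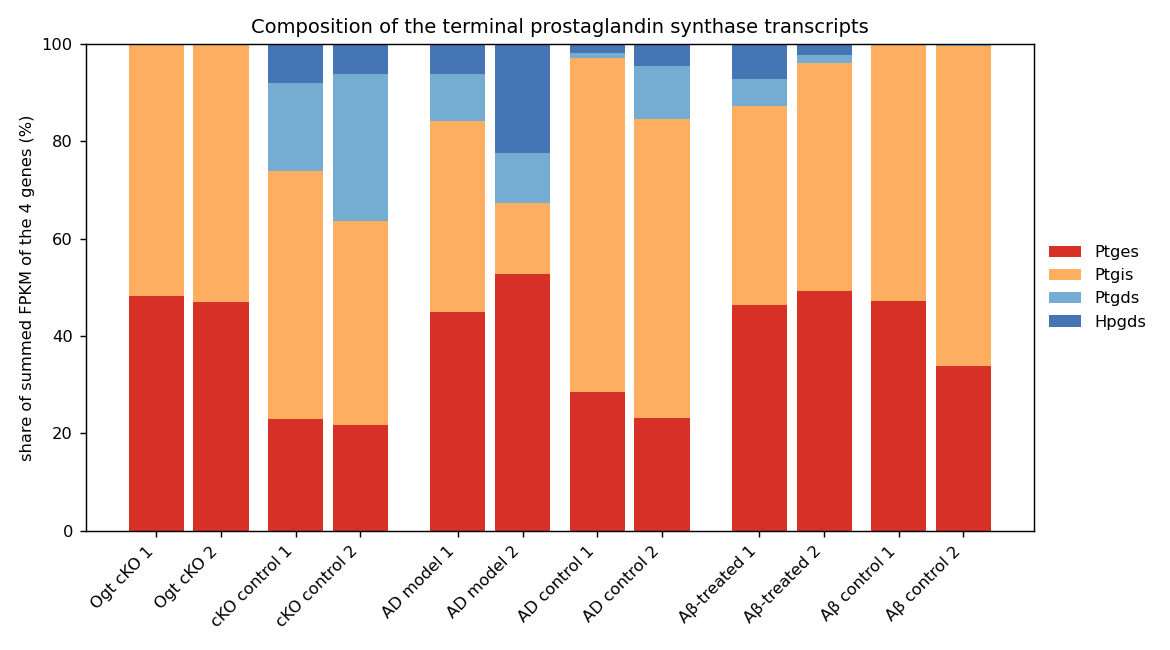
Share (%) of Ptges, Ptgis, Ptgds and Hpgds in their summed FPKM in each of the 12 libraries (stacked bars). Ptgds and Hpgds together are too thin to see in the Ogt cKO and Aβ control libraries, and Hpgds reaches 22.5% in AD model replicate 2.

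Alox5ap, the 5-lipoxygenase activating protein, had the smallest ratio of highest to lowest FPKM of the 9 genes, 4.16 (10.1 and 2.44 FPKM), and passed the test in no comparison. It was at 8.10 and 4.04 FPKM in the Ogt cKO, against 9.46 and 6.18 in the cKO control (log2 change -0.36 ± 0.35 SE, limma, adjusted p = 0.433). The AD model held 4.78 and 3.10 FPKM, against 4.09 and 2.44 in the AD control (0.22 ± 0.35, adjusted p = 0.742), and Aβ-treated cells 7.40 and 4.38, against 8.66 and 10.1 in the Aβ control (-0.63 ± 0.35, adjusted p = 0.191). Groups overlapped in the cKO and AD comparisons and not in the Aβ comparison. In the order of the 6 group means, which ranged between 9.40 FPKM in the Aβ control and 3.27 in the AD control, each group overlapped with the next. At 68 to 253 reads per library, a change of this size was not resolved from the spread of replicates.

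Ptger4, the EP4 receptor, was low and rose in all 3 comparisons. It was at 1.16 and 1.21 FPKM in the Ogt cKO, against 0.567 and 0.525 in the cKO control, 2.17-fold higher (log2 change 0.50 ± 0.15 SE, limma, adjusted p = 0.0258). The AD model held 1.80 and 1.89 FPKM, against 0.310 and 0.329 in the AD control, 5.77-fold higher (1.11 ± 0.15, adjusted p = 0.00132), and Aβ-treated cells 1.73 and 1.73, against 0.516 and 0.979 in the Aβ control, 2.31-fold higher (0.66 ± 0.15, adjusted p = 0.00870). All libraries of the Ogt cKO, AD model and Aβ-treated groups were above all control libraries. Since Ptger4 reached 1 FPKM only in these groups, the filter kept it because it was high there. The 3 effects did not differ past the threshold, with -0.61 ± 0.21 for cKO minus AD (adjusted p = 0.0602) the largest of the differences. This difference was called in the rescaled values (-0.76, adjusted p = 0.0356) and with voom on the recovered reads (-1.40, adjusted p = 0.0399), so its absence is not firm. The cKO call was lost without any 1 of its 4 libraries (adjusted p between 0.0877 without cKO control replicate 1 and 0.121 without cKO control replicate 2, with 0.0998 and 0.111 without Ogt cKO replicates 1 and 2) and without a filter (0.0593), the AD call in the 4 libraries alone (0.0808), and the Aβ call without Aβ control replicate 1 (0.0643). Ptger4 overlaps Ttc33 on the opposite strand in 82 of its 6648 exon bases. The counting was not stated to use strand, and Ttc33 was at 7.35 to 12.8 FPKM, so reads of the shared bases cannot be assigned. Summed neutrophil markers were 7.51 and 4.35 FPKM in the Ogt cKO, against 0.153 and 0.200 in the cKO control, 25.1 and 16.7 in the AD model, against 1.03 and 0.0777 in the AD control, and 31.6 and 36.0 in Aβ-treated cells, against 2.27 and 1.07 in the Aβ control. Of this list Mmp8 and S100a8 carried most of the sum, Retnlg was at 0 in all 12 libraries and Ly6g and S100a9 in 10, and the part of these cells was not tested. The depth behind Ptger4 was 34 to 229 reads per library.

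The effects of the experiments on the 9 genes were also compared directly. Between cKO and AD, 4 of 9 genes differed, where 25.6% of all tested genes did. Between Aβ and AD, 1 of 9 differed, where 6.14% did, and between cKO and Aβ, 6 of 9 differed, where 52.3% did. The first count was 7 without AD control replicate 2, and the second 0 without Aβ-treated replicate 1 or Aβ control replicate 1 and 4 without AD control replicate 1. Differences between the cKO and Aβ effects were thus common among all tested genes. Pla2g4a, Alox5ap and Ptger4 did not differ between any 2 effects at the threshold in the fit of all 12 libraries (SE of each difference 0.51, 0.50 and 0.21 log2 units in that order), which does not show that the effects were alike. For Pla2g4a the cKO minus Aβ difference of 1.20 was called in the 8 libraries of those experiments alone (limma, adjusted p = 0.00243). It was also called with the replicate number as a block (limma, adjusted p = 0.0407). The cKO minus AD difference of this gene was 0.67, and 1.36 without AD control replicate 2. Its Aβ minus AD difference was -0.53, and -1.22 without AD control replicate 1.

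Beyond the 9 genes, 62 other genes of eicosanoid release, synthesis, transport, breakdown and reception were listed, of which 60 had 1 row in the table and 34 were tested. In the Ogt cKO 9 of the 34 rose and 8 fell, with a median log2 change of 0.33, in the AD model 9 rose and 4 fell (0.20), and in Aβ-treated cells 8 rose and 3 fell (0.07). The genes that rose were 26.5% of the 34 in the Ogt cKO, 26.5% in the AD model and 23.5% in Aβ-treated cells, where 22.6%, 9.8% and 20.8% of all tested genes rose. Those that fell were 23.5%, 11.8% and 8.82% in the same order, where 19.8%, 7.27% and 15.1% of all tested genes fell, so that the cKO shares lay near those of all tested genes. Without either AD control library 16 rose in the Ogt cKO. In the AD model 2 fell without AD model replicate 2, AD control replicate 1 or either Aβ control library, and in Aβ-treated cells 1 fell without Aβ-treated replicate 2 or Aβ control replicate 1. Among partners of the 9 genes, the constitutive prostaglandin E2 synthases Ptges2 and Ptges3 passed the test in no comparison, with log2 changes between -0.23 and 0.33. Ptges3, a co-chaperone as well, was at 38.5 to 59.1 FPKM in every library.

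Tbxas1, thromboxane synthase, which is known from macrophages and platelets, followed the D2 synthases. It was at 0.825 and 0.699 FPKM in the Ogt cKO, against 8.15 and 6.22 in the cKO control (log2 change -2.21 ± 0.17 SE, limma, adjusted p = 0.000283). The AD model held 3.15 and 4.13 FPKM, against 1.28 and 1.46 in the AD control (0.96 ± 0.17, adjusted p = 0.00536), and Aβ-treated cells 4.18 and 3.19, against 1.71 and 1.72 in the Aβ control (0.78 ± 0.17, adjusted p = 0.00769). Hpgd, the enzyme that inactivates prostaglandins by oxidation, fell in the Ogt cKO to 0.755 and 0.741 FPKM, against 18.3 and 16.3 in the cKO control, 23.1-fold lower (-3.39 ± 0.49, adjusted p = 0.00219). It was at 1.61 and 0.718 FPKM in the AD model, against 1.80 and 1.63 in the AD control, and at 5.51 and 2.00 in Aβ-treated cells, against 2.64 and 9.82 in the Aβ control, neither of which passed.

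Of 15 receptors in the list, 6 were tested. The filter kept several of them through the groups where they were high, since Ptgir reached 1 FPKM only in the Ogt cKO, Ptgdr and Gpr17 only in the cKO control, and Fpr2 only in the Ogt cKO, AD model and Aβ-treated groups. Ptgir, the prostacyclin receptor, rose in the Ogt cKO, at 1.58 and 1.27 FPKM, against 0.239 and 0.116 in the cKO control (1.04 ± 0.18, adjusted p = 0.00357). Ptgdr, a receptor for prostaglandin D2, fell, at 0.0399 and 0.0587 FPKM, against 1.61 and 2.86 (-1.60 ± 0.20, adjusted p = 0.00142), and was at 0 reads in the AD model and Aβ-treated libraries. The other prostaglandin D2 receptor, Ptgdr2, had 0 to 8 reads and the EP2 receptor Ptger2 2 to 76 reads per library, and neither was tested. Fpr2, a formyl peptide receptor of myeloid cells that also binds lipoxin A4, rose in all 3 comparisons. It was at 5.49 and 4.23 FPKM in the Ogt cKO, against 0.246 and 0 in the cKO control, at 9.30 and 7.93 in the AD model, with 0 reads in either AD control library, and at 16.1 and 7.86 in Aβ-treated cells, against 0.0913 and 0.0888 in the Aβ control (adjusted p = 0.00107, 0.000112 and 4.84e-05 in that order). Gpr17, a receptor of oligodendrocyte precursors that has been linked to leukotrienes, was at 0.257 and 0.288 FPKM in the Ogt cKO, against 1.39 and 1.45 in the cKO control (-0.93 ± 0.14, adjusted p = 0.00235), and at 0.163 and 0.0423 in the AD model, against 0.898 and 0.666 in the AD control (-0.69 ± 0.14, adjusted p = 0.00947).

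Of the leukotriene genes, Alox5, which encodes 5-lipoxygenase, and Ltc4s, leukotriene C4 synthase, rose in Aβ-treated cells. Alox5 was at 5.95 and 5.45 FPKM there, against 2.31 and 2.80 in the Aβ control (0.92 ± 0.26, adjusted p = 0.0231), and Ltc4s was at 8.38 and 11.7, against 2.39 and 1.59 (1.88 ± 0.39, adjusted p = 0.00646). Neither passed in the cKO comparison (adjusted p = 0.0581 and 0.929) or the AD comparison (0.0927 and 0.0948). Lta4h, leukotriene A4 hydrolase, was at 10.9 to 16.4 FPKM in every library and passed in none. Mgst3, a microsomal glutathione transferase that can conjugate leukotriene A4, fell to 6.39 and 7.71 FPKM in the AD model, against 14.5 and 18.5 in the AD control (-1.11 ± 0.16, adjusted p = 0.0017), and to 11.3 and 10.9 in Aβ-treated cells, against 27.2 and 26.9 in the Aβ control (-1.22 ± 0.16, adjusted p = 0.000602). Its relative Mgst2 was at 1.27 and 1.01 FPKM in Aβ-treated cells, against 0.144 and 0.0622 in the Aβ control (0.96 ± 0.14, adjusted p = 0.00107), and at 0.764 and 0.697 in the AD model, against 0.0654 and 0 in the AD control (0.75 ± 0.14, adjusted p = 0.00651). It reached 1 FPKM only in the Aβ-treated libraries, through which the filter kept it.

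Of the other genes with the smallest adjusted p, Acsl4, the ligase that activates arachidonic acid for storage in membranes, was at 24.1 and 17.8 FPKM in the AD model, against 7.92 and 6.76 in the AD control (1.39 ± 0.15, adjusted p = 0.000478), and at 19.4 and 19.0 in Aβ-treated cells, against 4.45 and 4.15 in the Aβ control (1.93 ± 0.15, adjusted p = 4.84e-05). It rose less in the Ogt cKO, at 5.98 and 6.83 FPKM, against 4.11 and 4.06 in the cKO control (0.54 ± 0.15, adjusted p = 0.0215). Abcc4, an exporter of prostaglandins, was at 4.53 and 6.66 FPKM in the AD model, against 1.82 and 1.33 in the AD control (1.34 ± 0.20, adjusted p = 0.00225), and at 5.36 and 5.53 in Aβ-treated cells, against 1.54 and 1.86 in the Aβ control (1.26 ± 0.20, adjusted p = 0.00166). Akr1b3, an aldose reductase that can form prostaglandin F2 alpha, was at 25.5 and 21.1 FPKM in the Ogt cKO, against 13.4 and 12.2 in the cKO control (0.81 ± 0.12, adjusted p = 0.00227), and at 17.9 and 19.0 in the AD model, against 11.02 and 10.73 in the AD control (0.71 ± 0.12, adjusted p = 0.00426).

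**Figure D5:**
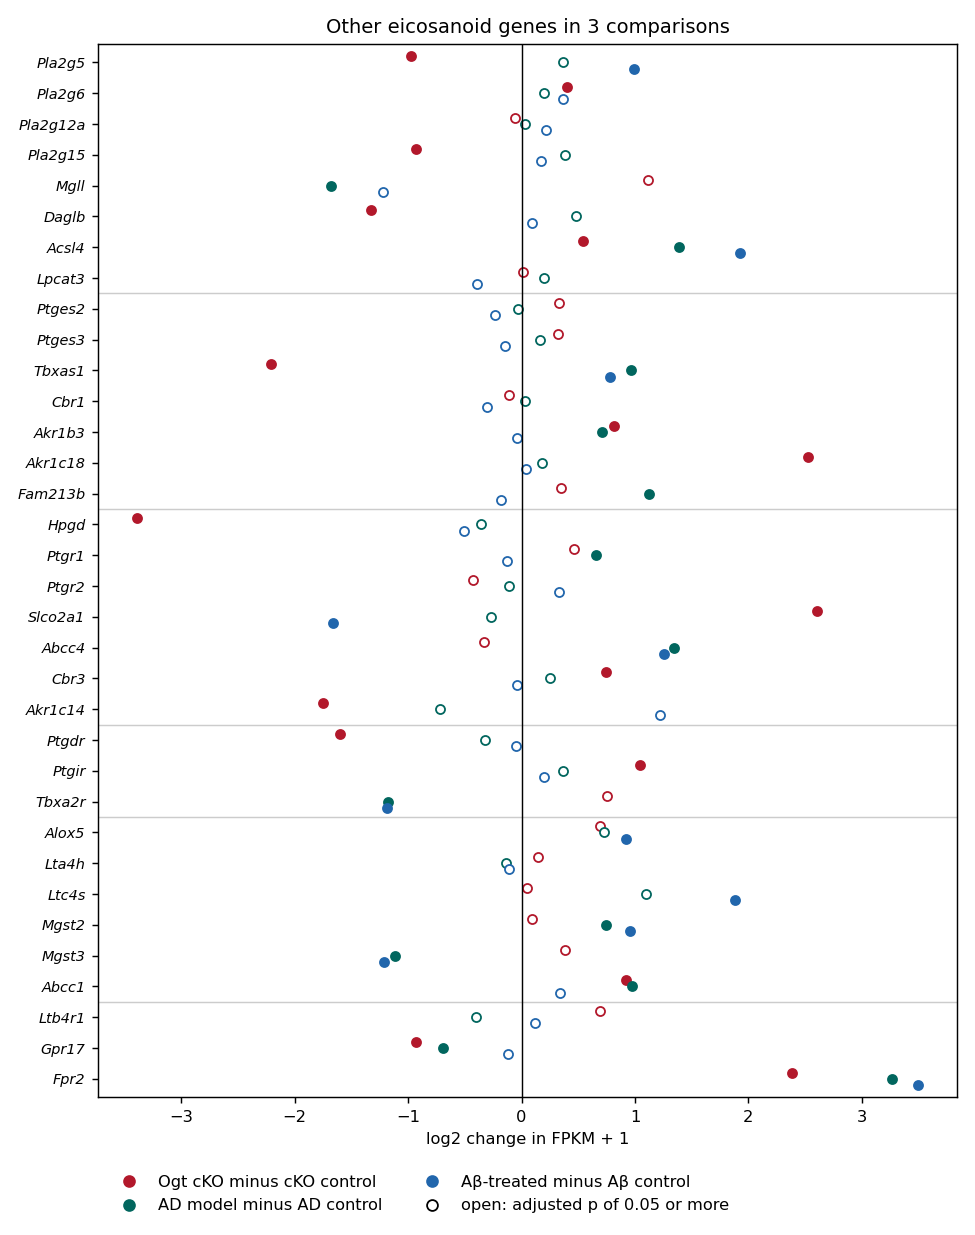
Fitted log2 change in FPKM + 1 (x axis) of the 34 other tested eicosanoid genes in the 3 comparisons, with filled points where limma's adjusted p was under 0.05 and lines between release, prostanoid synthesis, transport and breakdown, prostanoid receptor, leukotriene synthesis, and leukotriene and lipoxin receptor genes. Hpgd and Tbxas1 lie farthest to the left in the cKO comparison, and Fpr2 lies on the right in all 3.

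Across the 12 libraries some of the 9 genes varied together. As a description over libraries that share groups and depth, Pearson's r of log2(FPKM + 1) was 0.93 between Ptgs2 and Pla2g4a, which lie 138740 bases apart on chromosome 1, 0.91 between Ptgs1 and Ptges, and 0.81 between Ptgds and Hpgds. Ptgis ran against both D2 synthases, with r = -0.82 for Ptgds and -0.89 for Hpgds. Among 2416 genes with at least 5 FPKM on average and a range of at least 20 FPKM, the pattern nearest to that of Ptgs2 was Il3ra (r = 0.973), an interleukin 3 receptor chain, followed by Plk2 (0.963) and Rnd1 (0.949). Nearest to Pla2g4a were Myof (0.985), Plk2 (0.968) and Capg (0.964), to Ptgs1 Rangap1 (0.982), Ctdnep1 (0.970) and Cmtm3 (0.966), and to Ptges Nadk (0.986), Hsp90ab1 (0.976) and Nqo1 (0.971). The nearest to Ptgis were S100a10 (0.977), Anxa2 (0.975) and Polr2m (0.974). For Ptgds they were Glul (0.962), Serinc5 (0.953) and the myelin gene Cnp (0.950), and for Hpgds Ifi207 (0.957), Slc16a1 (0.955) and Mylip (0.945). Ptger4 was nearest to Cd72 (0.966), Zc3h12a (0.965) and Fam96a (0.960), and Alox5ap had no close match, with Gpx3 (0.801) first, then Metrnl (0.767) and Stom (0.754).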

How the data were processed

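Total RNA of cultured cells was extracted with TRIzol and sequenced from Illumina libraries, per the labels' protocols, with mm10 as build, per the submitters' processing notes. The aligner, the counter, the annotation release and whether strand was used are all not given in the sources used here. A single table of FPKM for 54532 genes was deposited by the authors. Reads per gene were recovered from FPKM and gene length, and 100% of values came out whole within 0.1 of a read.

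Samples were grouped by the labels. Genes at 1 FPKM or more in at least 2 of 12 libraries (14014) were tested on the log2(FPKM + 1) scale. The fit (limma 3.58.1, R 4.3.3) gave each group a mean and all libraries 1 spread that follows intensity (6 residual and 2.92 prior degrees of freedom). Two-sided p-values were adjusted by Benjamini-Hochberg over all tested genes, with a threshold of 0.05. Differences of effects were contrasts of this fit. The code was tested on simulated data.

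Members and lists were chosen with earlier results of these data known. Named in the text were all 9 genes, 10 partner genes fixed by role (of 62 other eicosanoid genes, 1 listed under an older symbol and 1 on 2 rows left out), up to 4 more per comparison by adjusted p, the 3 highest genes of a marker list at most, and the 3 nearest patterns per gene. Markers named for being at 0, and Mbp, Cnp, Mmp8, S100a8 and Kit, were named with their values seen. Alternatives were 2 pseudocounts, 2 filters, quantile normalization, rescaling to total reads, voom on the recovered reads, the replicate number as a block, each experiment alone and each library left out. Plots used matplotlib 3.10.9 in Python 3.11.15.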

Additional observations from a re-analysis of the deposited data

Results flagged for a closer look

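For several genes the effects of 2 experiments differed in a test of the difference itself (limma, contrast of contrasts over all 12 libraries, Benjamini-Hochberg over all tested genes). The cKO effect minus the AD effect was 1.94 log2 units for Ptges (adjusted p = 0.014), 3.30 for Ptgis (adjusted p = 0.00829), -4.76 for Ptgds (adjusted p = 0.00259) and -3.95 for Hpgds (adjusted p = 0.00472). The cKO effect minus the Aβ effect was 2.97 for Ptgs1 (adjusted p = 0.0104), 3.34 for Ptgs2 (adjusted p = 0.0498), 4.63 for Ptges (adjusted p = 0.000144), 4.44 for Ptgis (adjusted p = 0.000889), -4.66 for Ptgds (adjusted p = 0.000998) and -3.58 for Hpgds (adjusted p = 0.00265). The Ptgs2 call among these was not stable, and was lost in 10 of the 12 fits that left out a library and without a filter (adjusted p = 0.117). The Aβ effect minus the AD effect was -2.69 for Ptges (adjusted p = 0.0116). Of the 6 genes that differed between the cKO and Aβ effects, all but Ptgs2 had fitted changes of opposite sign, and the control groups lay apart, with Ptges, for instance, at 11.9 FPKM in the cKO control and 92.01 in the Aβ control. Age and experiment cannot be told apart here.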

How the results depend on the processing

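No direction reversed for a called value. Of 1137 values of single genes under the alternatives, 1048 kept their call, 47 lost and 42 gained it. The cKO calls of Ptgs2, Ptges, Ptgis and Ptgds held under all alternatives run. With 2 libraries per group, calls of genes under 1 FPKM in 1 group rest on few reads and on the added 1.

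Without a filter, other eicosanoid genes that fell in the AD comparison numbered 2, members that rose in the Aβ comparison 1, and genes that differed between the Aβ and AD effects 540. With a filter at 5 FPKM, 5 other eicosanoid genes and 1762 genes in all fell in the cKO comparison, 2 of the other genes fell in the AD comparison, 1 fell in the Aβ comparison, 1 member and 1840 genes in all rose there, and 531 differed between the Aβ and AD effects. These filters change how many genes are tested. In the 4 libraries of each experiment alone, 14 other eicosanoid genes rose and 4253 genes fell in the cKO comparison. In the AD comparison 0 members and 1 other gene rose and 0 other genes fell, with 239 genes higher and 39 lower in all (86.0% of calls higher, against 57.4% in the fit of 12 libraries). In the Aβ comparison 4 members rose and 5 other genes fell. In the 8 libraries of 2 experiments alone, 2078 genes differed between the cKO and AD effects, and 0 members and 91 genes between the Aβ and AD effects. The cause of these shifts was not tested.

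Replicate numbers were not taken to pair the libraries, since each comparison has only 2 pairs. Deviations of same-numbered libraries correlated at 0.0332 in the cKO, 0.551 in the AD and -0.169 in the Aβ experiment. With the replicate number as a block, 14 other eicosanoid genes rose in the cKO comparison, 1 member fell in the AD comparison (Ptgis, adjusted p = 0.00931), where Ptgs1 also rose (adjusted p = 0.036), 4 fell in the Aβ comparison (Ptgs1, with an adjusted p of 0.0293, and Alox5ap, with 0.0495, besides Ptges and Ptgis) and 3 differed between the Aβ and AD effects. A crossed pairing in the Aβ experiment, chosen after seeing the data, called 4 members and 3172 genes lower.

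Leaving out each library in turn gave, in the cKO comparison, 3 to 6 members and 6 to 16 other eicosanoid genes higher, 1 to 2 members lower, and 1046 to 3565 genes higher and 811 to 3236 lower in all. The AD comparison gave 3 to 5 members higher, 0 to 1 lower and 2 to 6 other genes lower. The Aβ comparison gave 0 to 5 members higher, 0 to 2 lower, 1 to 4 other genes lower, and 1772 to 3218 genes higher and 902 to 2681 lower in all. Differences called numbered 3 to 7 members and 1525 to 5280 genes between the cKO and AD effects, and 0 to 4 members and 195 to 1621 genes between the Aβ and AD effects. Here 1 library stood for an arm and was assumed to vary like the other groups.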
